A study of Mus musculus with 12 samples.

Results

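The genes of endoplasmic reticulum (ER) stress and of the integrated stress response were followed in mouse liver as 10 genes fixed by name: Hspa5, Hsp90b1, Dnajb9, Herpud1, Xbp1, Atf4, Ddit3, Trib3, Asns and Chac1. Of the 55487 rows of the deposited table, 11 carried these names, because Ddit3 stood under a pair of gene identifiers. One row per gene, 10 in all, was among the 15197 rows with enough counts to be tested. The second Ddit3 row (ENSMUSG00000116429) held exactly 1 count in each of the 12 libraries, as did 141 rows of the table in all, and was not tested.

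The livers came from male Kunming mice, 7 to 8 weeks old when bought, that received their treatment by gavage for 7 days. Control mice received saline, MTP mice received triptolide at 300 μg/kg, and MTP + CR mice received triptolide at 300 μg/kg together with crocin at 100 mg/kg. Triptolide, a diterpenoid of the thunder god vine, inhibits transcription by RNA polymerase II, and crocin is a water-soluble carotenoid of saffron. Each group had 4 livers with 1 mRNA library each, and no group received crocin alone, so an effect of crocin by itself cannot be told apart from its effect on triptolide.

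Proteins that are secreted or held in membranes fold in the ER, and a liver cell, which secretes most plasma proteins, carries a large load of them. When unfolded proteins build up, membrane sensors start the unfolded protein response, in which the transcription factors XBP1 and ATF6 raise chaperones and the machinery that removes failed proteins. A further branch phosphorylates the initiation factor eIF2, as lack of amino acids and other stresses also do, which lowers general translation while the transcription factor ATF4 is made, and ATF4 turns on genes of amino acid supply and, with CHOP, genes linked to cell death. The comparison of MTP with Control asked how triptolide altered these genes in the liver, and the comparison of MTP + CR with MTP asked how crocin altered them when triptolide was given.

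The promoters of 4 genes are shown because they carry the DNA elements through which these branches are known to act on them and because the values of the genes turn up below. Each is a window of 250 bases before to 50 bases after the RefSeq start site on GRCm38.p6, the assembly of mm10, written along the gene's strand, with every match to a searched motif in capitals.

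Hspa5, chr2:34771840-34772139, plus strand: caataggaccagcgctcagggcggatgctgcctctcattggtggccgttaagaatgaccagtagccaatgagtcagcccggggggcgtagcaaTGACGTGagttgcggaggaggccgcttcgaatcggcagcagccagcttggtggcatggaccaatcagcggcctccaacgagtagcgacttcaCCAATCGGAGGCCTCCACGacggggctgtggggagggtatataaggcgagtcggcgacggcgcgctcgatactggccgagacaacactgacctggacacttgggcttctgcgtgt

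Hsp90b1, chr10:86705395-86705694, minus strand: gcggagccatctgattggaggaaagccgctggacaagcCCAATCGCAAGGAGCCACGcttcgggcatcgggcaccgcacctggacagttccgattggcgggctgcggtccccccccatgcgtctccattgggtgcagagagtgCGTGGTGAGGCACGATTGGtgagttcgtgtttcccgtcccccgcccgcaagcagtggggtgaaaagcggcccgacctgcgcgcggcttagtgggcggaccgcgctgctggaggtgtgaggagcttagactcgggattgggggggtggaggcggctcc

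Herpud1, chr8:94386179-94386478, plus strand: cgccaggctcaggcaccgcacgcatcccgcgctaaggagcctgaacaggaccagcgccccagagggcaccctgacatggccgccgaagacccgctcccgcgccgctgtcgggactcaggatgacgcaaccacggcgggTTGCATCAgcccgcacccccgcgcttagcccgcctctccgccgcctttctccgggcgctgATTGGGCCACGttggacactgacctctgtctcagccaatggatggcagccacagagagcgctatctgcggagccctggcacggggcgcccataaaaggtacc

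Chac1, chr2:119350992-119351291, plus strand: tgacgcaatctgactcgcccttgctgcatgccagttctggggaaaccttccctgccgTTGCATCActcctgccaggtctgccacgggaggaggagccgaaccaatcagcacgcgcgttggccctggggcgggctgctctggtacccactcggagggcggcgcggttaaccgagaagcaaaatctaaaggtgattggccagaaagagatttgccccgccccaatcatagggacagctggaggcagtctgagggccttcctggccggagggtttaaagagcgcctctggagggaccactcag

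Both strands of 300 bases were searched for 4 motifs in all 10 genes, each of which had a RefSeq window. The ER stress response element, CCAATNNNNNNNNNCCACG, was present in 0.119% of 32851 promoter windows. It stood at −65 to −47 of Hspa5, counted from the start base as 0, and at 2 places in Hsp90b1, −212 to −194 and, on the other strand, −107 to −89. The shorter ER stress response element II, ATTGGNCCACG, was in 0.0365% of windows and at −52 to −42 of Herpud1. TGACGTG, a core bound by XBP1 and ATF6, was in 2.01% of windows and at −157 to −151 of Hspa5. TGATGNAA, the element of C/EBP and ATF factors, was in 3.97% of windows and in those of Trib3, Asns, Chac1 and Herpud1, at −193 to −186 and −112 to −105 in the windows of Chac1 and Herpud1 shown above. No window of Xbp1, Atf4, Ddit3 or Dnajb9 held these letters. The motifs did not overlap each other in any of the 10 windows, and a match is a description of the sequence only.

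The libraries held 15509226 to 18430566 counts, and the CPM values (counts scaled to an equal library size) below carry the TMM scaling factor, which ran from 0.823 to 0.989 in Control and MTP + CR livers and from 1.07 to 1.52 in MTP livers. With total counts alone in place of TMM, the middle of the distribution of log2 fold changes over all genes (median) moved from 0.02 to 0.50 for MTP against Control and from −0.03 to −0.54 for MTP + CR against MTP, so every fold change is relative to this choice. A gene was called when edgeR's quasi-likelihood test gave a Benjamini-Hochberg adjusted p under 0.05 over all 15197 genes and a fold change above 1.5. This held for 820 genes (5.40%) in MTP against Control (2.61% higher, 2.78% lower), 1892 (12.4%) in MTP + CR against MTP (5.94% higher, 6.51% lower) and 202 (1.33%) in MTP + CR against Control (0.329% higher, 1.00% lower). With total counts the calls were 2610 higher and 321 lower, against 397 and 423 with TMM, in MTP against Control, and 413 higher and 4133 lower, against 903 and 989, in MTP + CR against MTP. The share of genes called depended on single MTP livers. Without MTP 4, 12.9% and 25.8% were called in the comparisons of MTP with Control and of MTP + CR with MTP. Without MTP 1 the shares were 2.16% and 1.97%, without MTP 2 4.29% and 5.16%, and without MTP 3 1.58% and 1.70%. The summed level of 10 hepatocyte markers was 123577 to 181321 CPM in Control, 41065 to 65436 CPM in MTP and 76886 to 122696 CPM in MTP + CR livers, so defining genes of the labelled tissue were abundant in every group, at levels that differed between groups. All 10 hepatocyte markers had a negative log2 fold change in MTP against Control (median −1.30). There 2 were called lower, beside 2.78% of all genes. All 10 were positive in MTP + CR against MTP (median 1.27), where 4 were called higher, beside 5.94% of all genes. In whole liver, fewer cells of a type and less RNA per cell cannot be told apart.

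Measured per length in the deposited FPKM, the 10 genes spanned a wide range of levels. The lengths behind these values are not plain transcript lengths. For Hspa5, Xbp1 and Atf4 they were 6952, 5386 and 4088 bases, more than the whole annotated genes span. Levels and orders between genes therefore hold only at the deposited lengths. The FPKM over the 12 livers averaged 178 ± 50.2 for Hsp90b1 (mean ± SD, n = 12), 103 ± 32.3 for Hspa5, 45.3 ± 20.3 for Herpud1, 37.3 ± 23.3 for Dnajb9, 18.0 ± 4.05 for Xbp1 and 17.2 ± 5.98 for Atf4. Below these came Ddit3 with 3.98 ± 2.84 FPKM, Trib3 with 3.54 ± 1.99 FPKM, Chac1 with 3.03 ± 2.89 FPKM and Asns with 0.83 ± 0.48 FPKM. Hsp90b1 exceeded Hspa5, and Atf4 exceeded Ddit3, in 12 of 12 livers. The order of other neighbours was less firm, with Xbp1 above Atf4 in 6 of 12 livers, Ddit3 above Trib3 in 6 of 12 and Trib3 above Chac1 in 7 of 12.

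Among the 10 genes, 2 were called higher in MTP + CR than in MTP livers, Hspa5 and Atf4, and none was called lower, beside 5.94% and 6.51% of all genes. No gene of the 10 was called in MTP against Control, beside 5.40% of all genes. There, 3 had an unadjusted p under 0.05 (Ddit3, Dnajb9 and Herpud1, against 22.8% of all genes) and DESeq2 called Ddit3 alone (11.6% of all genes). No gene was called in MTP + CR against Control, beside 1.33% of all genes. There, 2 had an unadjusted p under 0.05 (Hspa5 and Ddit3, against 22.0% of all genes) and DESeq2 again called Ddit3 alone (7.62% of all genes). In MTP + CR against MTP, 4 had an unadjusted p under 0.05 (Hspa5, Atf4, Hsp90b1 and Herpud1, against 33.9%), and DESeq2 called Hspa5, Atf4 and Hsp90b1 (21.8% of all genes). The median log2 fold change of the 10 genes was −0.41 in MTP against Control, 0.78 in MTP + CR against MTP and 0.21 in MTP + CR against Control, beside medians over all genes of 0.02, −0.03 and −0.02. The comparisons of MTP with Control and of MTP + CR with MTP share the MTP libraries, so a liver that is low there enters both with opposite sign.

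**Figure D1:**
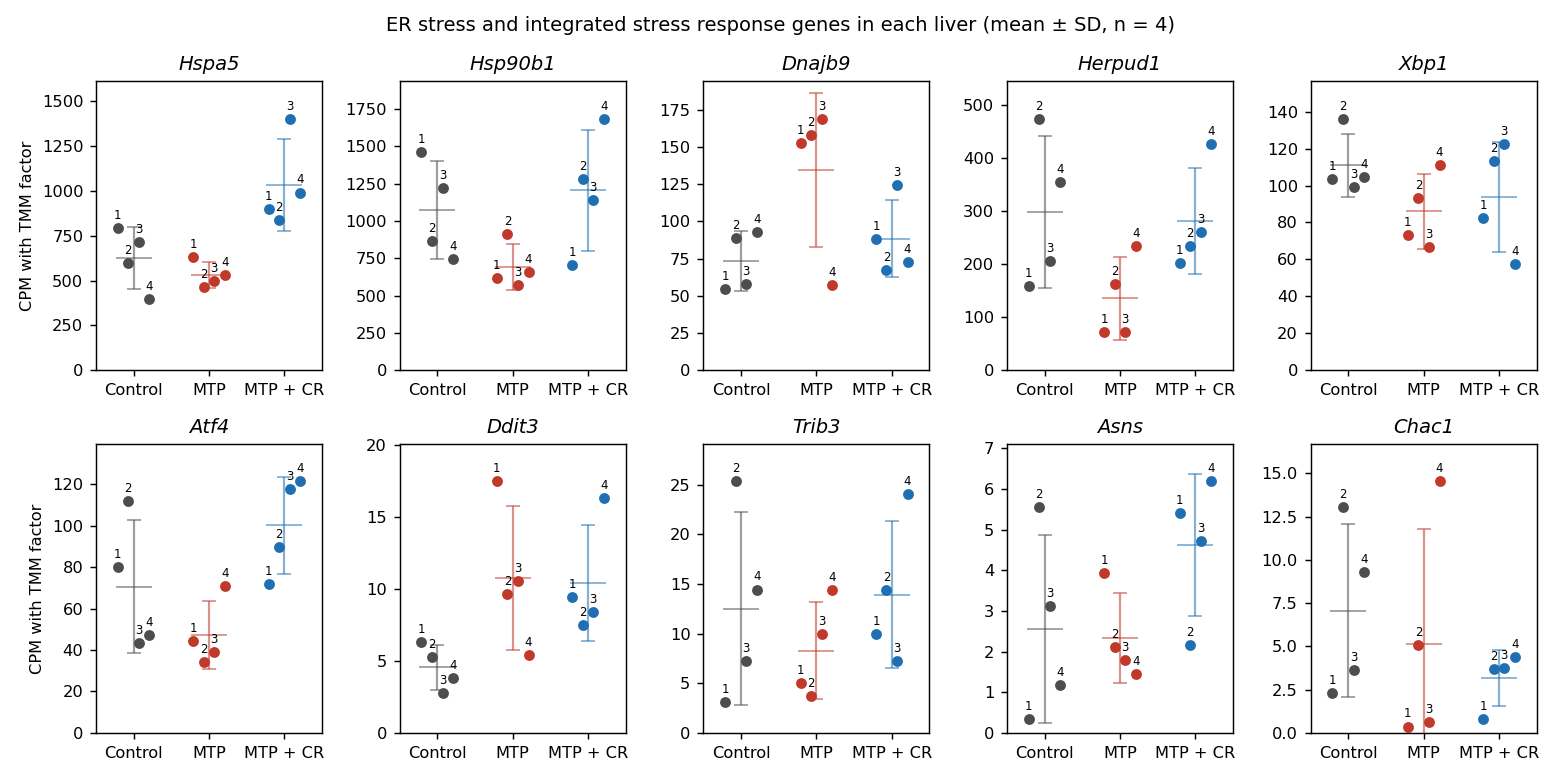
CPM with the TMM factor (linear axis from 0) of the 10 genes in each of the 12 livers, with the liver's number above its point and the group mean ± SD as bars (n = 4, the lower bar of Chac1 in MTP being clipped at 0). At this scaling, though not with total counts, all 4 MTP + CR livers lay above all MTP and Control livers for Hspa5. Liver MTP 4 lay far below the other MTP livers for Dnajb9.

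Hspa5 encodes BiP, the main HSP70 chaperone of the ER lumen and the best known readout of the unfolded protein response. Its level was 796, 596, 717 and 397 CPM in the Control livers, 629.7, 465, 498 and 533 CPM in the MTP livers and 898, 838, 1403 and 992 CPM in the MTP + CR livers. With TMM factors every MTP + CR liver thus exceeded all 8 others, while Control and MTP livers overlapped. With total counts alone MTP 1 (954 CPM) lay above MTP + CR 1, 2 and 4 (778, 828 and 816 CPM). Hspa5 was 1.94-fold higher in MTP + CR than in MTP livers (log2 fold change 0.96, SE 0.28, edgeR adjusted p = 0.0429). Against Control the fold was 1.65 (95% confidence interval 1.09 to 2.50, edgeR adjusted p = 0.161), and the groups did not overlap, which held for 15.5% of all genes in that comparison. MTP against Control gave a log2 fold change of −0.24 (95% confidence interval −0.83 to 0.36), which turned to 0.26 with total counts. The call of MTP + CR against MTP was lost in 7 of 13 other settings and in 9 of 12 fits that left out 1 liver, with the log2 fold change above 0.42 throughout. The loss at a threshold of 2-fold follows from the fold of 1.94 itself. The call held without Control 4, MTP 4 or MTP + CR 2, and the adjusted p was 0.0527 to 0.117 without any one of the others.

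Hsp90b1 encodes GRP94, the HSP90 chaperone of the ER lumen. It stood at 1460.0, 865, 1224 and 745 CPM in Control, 619, 913, 571 and 655 CPM in MTP and 708, 1284, 1139 and 1684 CPM in MTP + CR livers. The groups overlapped in every comparison, with 3 of 4 MTP livers below all Control livers and 3 of 4 MTP + CR livers above all MTP livers. The log2 fold change was −0.64 (SE 0.32, edgeR adjusted p = 0.258) for MTP against Control and 0.80 (SE 0.32, adjusted p = 0.101) for MTP + CR against MTP, where DESeq2 gave an adjusted p of 0.0436. In the annotation, 415 exon bases of Hsp90b1 are shared with 1810014B01Rik on the opposite strand, and reads there cannot be told apart without strand. That neighbour held 113 to 490 counts per library, against 9956 to 25583 for Hsp90b1.

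Dnajb9 encodes ERdj4, a J-domain partner of BiP that holds the sensor IRE1 in check. Its level was 54.9, 88.8, 57.6 and 93.0 CPM in Control, 153, 158, 169 and 57.5 CPM in MTP and 88.3, 67.2, 125 and 72.8 CPM in MTP + CR livers. MTP 1, 2 and 3 exceeded every other liver of the study, whereas MTP 4 lay among the Control livers. Dnajb9 was not called in MTP against Control with all livers (log2 fold change 0.87, SE 0.33, edgeR adjusted p = 0.140). Without MTP 4 it was called higher (log2 fold change 1.10, edgeR adjusted p = 0.0219) and was called lower in MTP + CR against MTP (−0.84, adjusted p = 0.0377). MTP 4 was the lowest MTP liver for Dnajb9, so leaving it out widens both differences by itself. In that fit 12.9% and 25.8% of all genes were called. Total counts also gave the call in both comparisons, with log2 fold changes of 1.38 and −1.17.

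Herpud1 encodes a membrane protein of the ER that helps to assemble the degradation complex around HRD1. It reached 159, 474, 205 and 355 CPM in Control, 72.7, 163, 72.1 and 234 CPM in MTP and 203, 234, 261 and 427 CPM in MTP + CR livers. MTP 1 and MTP 3 were the lowest of the 12 livers, and MTP 2 and MTP 4 lay within the Control range. The log2 fold change was −1.14 (SE 0.44, edgeR adjusted p = 0.143) for MTP against Control and 1.05 (SE 0.44, adjusted p = 0.113) for MTP + CR against MTP. Without MTP 4, the highest MTP liver for Herpud1, both were called by edgeR, at −1.56 (adjusted p = 0.0388) and 1.47 (adjusted p = 0.0307). Leaving out that liver widens both differences by itself, and 12.9% and 25.8% of all genes were called in that fit.

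Xbp1 encodes the transcription factor that IRE1 activates by splicing its mRNA, and a count per gene does not separate the spliced form from the unspliced. Its level was 104, 136, 99.0 and 105 CPM in Control, 73.2, 93.4, 66.7 and 111 CPM in MTP and 82.3, 113, 123 and 57.4 CPM in MTP + CR livers. MTP and MTP + CR livers overlapped throughout, and 3 of 4 MTP livers lay below every Control liver. The log2 fold change was −0.36 (95% confidence interval −0.93 to 0.20) for MTP against Control, which turned to 0.08 with total counts, and 0.12 (−0.44 to 0.68) for MTP + CR against MTP, which turned to −0.34. The edgeR adjusted p was 0.446 and 0.765.

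Atf4 encodes the transcription factor at the head of the integrated stress response, whose protein output is set mainly by translation, which mRNA counts do not show. It was present at 80.0, 112, 43.2 and 47.1 CPM in Control, 44.3, 34.0, 39.2 and 70.9 CPM in MTP and 71.8, 89.8, 118 and 121 CPM in MTP + CR livers. With TMM factors all 4 MTP + CR livers exceeded all 4 MTP livers, the nearest being MTP + CR 1 and MTP 4, while Control livers overlapped both groups. With total counts alone MTP + CR 1 (62.2 CPM) lay below MTP 1 and MTP 4 (67.0 and 76.0 CPM). Hspa5 and Atf4 were the 2 genes of the 10 whose groups did not overlap in this comparison with TMM factors, which held for 14.9% of all genes. Atf4 was 2.13-fold higher in MTP + CR than in MTP livers (log2 fold change 1.09, SE 0.33, edgeR adjusted p = 0.0483). Against Control, the log2 fold change was −0.58 (SE 0.33, edgeR adjusted p = 0.321) in MTP and 0.51 (SE 0.33, adjusted p = 0.378) in MTP + CR livers. The call was lost in 7 of 13 other settings and in 10 of 12 fits that left out 1 liver, with the log2 fold change between 0.58 and 1.37. It held without Control 2 or MTP 4, and the adjusted p was 0.0521 to 0.137 without any one of the others.

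Ddit3 encodes CHOP, a C/EBP family factor linked to cell death under lasting stress. Its level was low and rested on 39 to 111 counts in the Control livers: 6.33, 5.28, 2.77 and 3.82 CPM in Control, 17.5, 9.64, 10.5 and 5.38 CPM in MTP and 9.45, 7.50, 8.41 and 16.3 CPM in MTP + CR livers. Every MTP + CR liver lay above every Control liver, a lack of overlap that held for 15.5% of all genes in that comparison. Among MTP livers only MTP 4 fell within the Control range. MTP livers were 2.36-fold above Control (95% confidence interval 1.34 to 4.17), with an edgeR adjusted p of 0.0735. MTP + CR livers were 2.28-fold above Control (1.29 to 4.03), with an adjusted p of 0.113. DESeq2 gave adjusted p values of 0.0248 and 0.0412, and without MTP 4 the edgeR value for MTP against Control was 0.0221 (log2 fold change 1.44). MTP 4 was the lowest MTP liver for Ddit3, so leaving it out widens this difference by itself, and 12.9% of all genes were called in that fit. MTP + CR against MTP gave a log2 fold change of −0.05 (95% confidence interval −0.85 to 0.75), the smallest of the 10 genes. No group pair was fully apart in MTP against Control for any of the 10 genes, against 14.7% of all genes. Ddit3 shares 68 exon bases with Mars1 on the opposite strand, which held 557 to 1328 counts and a log2 fold change of −0.11 for MTP against Control (edgeR adjusted p = 0.812).

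**Figure D2:**
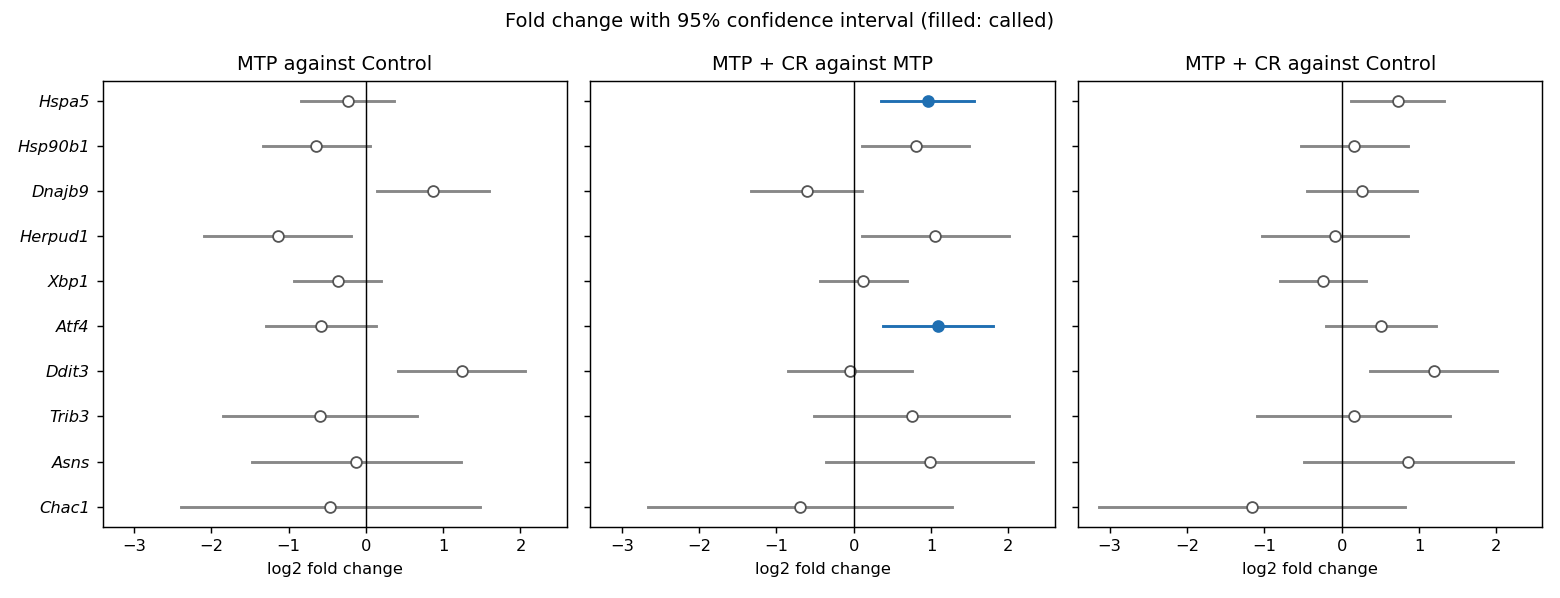
Log2 fold change (points) with 95% confidence interval (lines) of the 10 genes in each comparison from the edgeR fit with TMM factors, filled where called. Only Hspa5 and Atf4 in MTP + CR against MTP are filled, and the interval of Ddit3 lies above 0 in both comparisons with Control.

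Trib3, Asns and Chac1 are genes whose transcription ATF4 activates. Trib3, a pseudokinase that binds ATF4 and AKT, was measured at 3.08, 25.3, 7.24 and 14.4 CPM in Control, 5.05, 3.68, 9.98 and 14.4 CPM in MTP and 9.95, 14.4, 7.24 and 24.1 CPM in MTP + CR livers. The Control livers alone covered the range of all others. The log2 fold change of MTP + CR against MTP was 0.75 (95% confidence interval −0.51 to 2.01, edgeR adjusted p = 0.381), and that of MTP against Control was −0.60 (−1.85 to 0.66, adjusted p = 0.605).

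Asns, the synthetase that makes asparagine, was the least abundant of the 10, with 6 to 96 counts per library. Its level was 0.342, 5.55, 3.12 and 1.18 CPM in Control, 3.94, 2.12, 1.80 and 1.45 CPM in MTP and 5.40, 2.15, 4.72 and 6.18 CPM in MTP + CR livers. The MTP + CR livers 1, 3 and 4 lay above all MTP livers, and Control livers spread 16-fold from lowest to highest. MTP + CR against MTP gave a log2 fold change of 0.98 with a wide interval (−0.36 to 2.32, edgeR adjusted p = 0.284), close in size to that of Hspa5 but with an SE of 0.63 in place of 0.28. MTP against Control gave −0.12 (SE 0.63), which turned to 0.44 with total counts.

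Chac1, which breaks down glutathione, was the most variable. Its level was 2.28, 13.0, 3.62 and 9.30 CPM in Control, 0.369, 5.07, 0.643 and 14.5 CPM in MTP and 0.782, 3.72, 3.75 and 4.39 CPM in MTP + CR livers. MTP held both the lowest and the highest liver of the study. The log2 fold change was −0.46 (SE 0.90) for MTP against Control and −0.70 (SE 0.91) for MTP + CR against MTP, with edgeR adjusted p values of 0.818 and 0.618, and the second turned to 0.67 without MTP 4.

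The spread between livers of the same group differed widely among the 10 genes. The within-group SD of log2 CPM was 1.62 for Chac1, 1.05 for Asns, 1.00 for Trib3 and 0.70 for Herpud1, which placed them above 98.5%, 92.5%, 91.2% and 76.3% of all tested genes. It was 0.34 for Hspa5, 0.37 for Xbp1 and 0.43 for Hsp90b1, below the median of 0.47 over all genes. Beside the 1000 genes nearest to each in mean level, the SD of Chac1 was above 97.5%, that of Trib3 above 94.7%, that of Asns above 90.3% and that of Herpud1 above 84.6%.

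**Figure D3:**
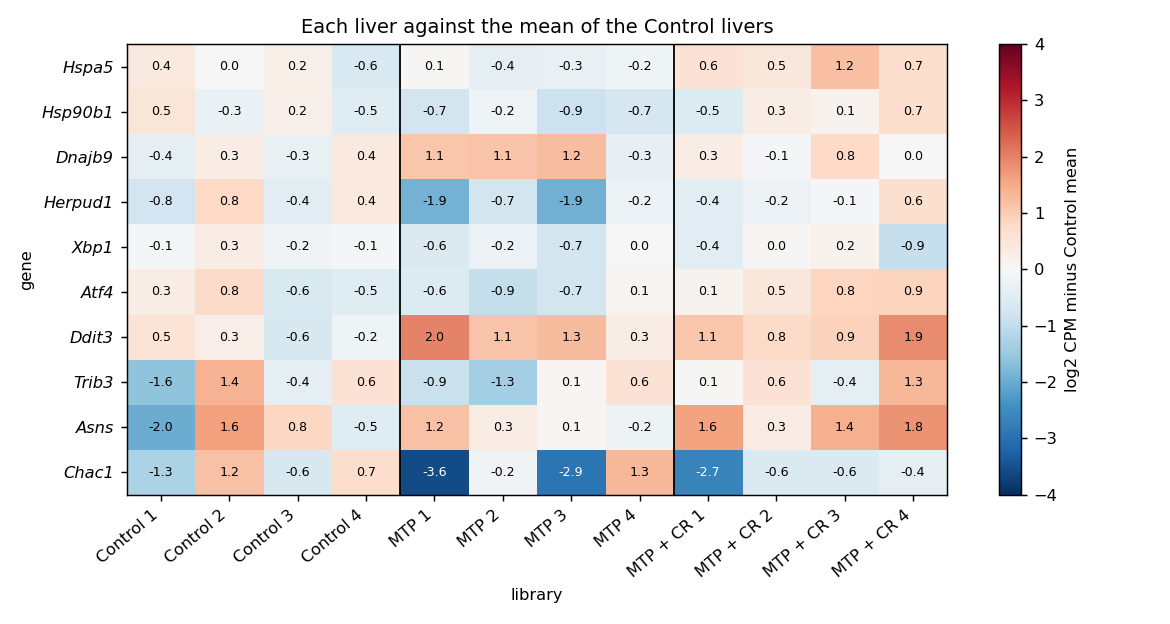
Log2 CPM of each gene in each liver minus the mean of the Control livers (colour and printed value, rows are genes, columns are livers). Chac1 and Herpud1 are lowest in the same livers, MTP 1 and MTP 3, and Hspa5 is above the Control mean in all 4 MTP + CR livers.

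Livers that were low in Chac1 were also low in Herpud1. With the group means subtracted, Pearson's r over the 12 livers was 0.919 (exact permutation of livers within groups, 13824 orders, two-sided p = 0.00181) and Spearman's rho was 0.916 (exact permutation p = 0.00166). Without the 2 livers farthest from the median, r was 0.891. Among the 45 pairs of the 10 genes tested in this way, 0 had an adjusted p under 0.05, and that of this pair was 0.0814 for Pearson's r and 0.0747 for rho (both exact permutation). The next pair was Trib3 and Herpud1, with r = 0.645 (exact permutation p = 0.0557) and r = 0.452 without the 2 farthest livers. Positive values made up 26 of the 45 pairs, so the 10 genes did not move as 1 block from liver to liver.

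**Figure D4:**
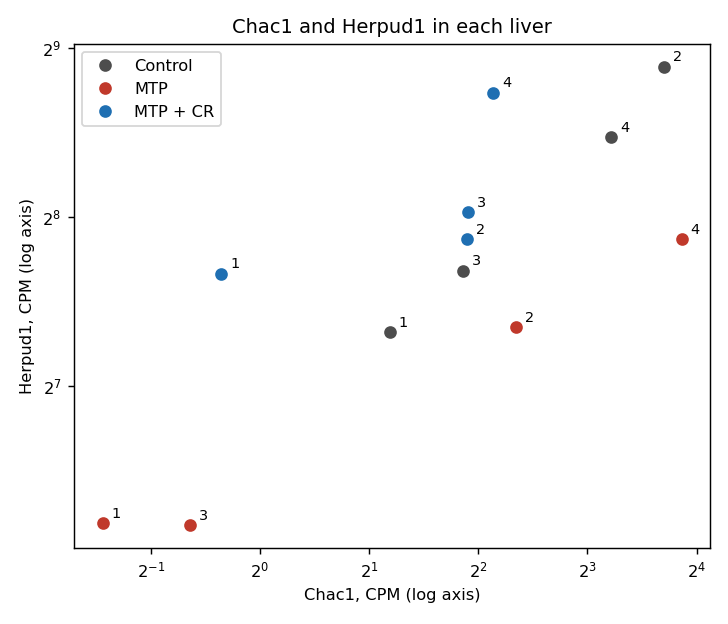
CPM of Chac1 (horizontal) and Herpud1 (vertical) in each liver, both on log axes, coloured by group and numbered by liver. The livers line up within each group, from MTP 1 and MTP 3 at the low end to MTP 4 and Control 2 at the high end of Chac1.

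Among 12951 protein-coding genes, those whose level followed Hspa5 most closely over the 12 livers, again with group means subtracted, were Txndc5 (r = 0.954), Angptl8 (0.873), A130010J15Rik (0.868), Lmo4 (0.834) and Actr1a (0.834). Txndc5 is a disulfide isomerase of the ER, and Angptl8 is a secreted regulator of lipoprotein lipase made in liver. The genes closest to Asns were Spon1 (0.893), Nucb2 (0.887), Rplp0 (0.876), Anapc15-ps (0.859) and Ptma (0.856). These were the highest of many correlations over the same 12 libraries and are given as a description.

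The wider set of ER genes was described through lists. Of 21 genes of ER folding and quality control, all of them tested, 6 were called higher and 1 lower in MTP + CR than in MTP livers, beside 5.94% and 6.51% of all genes, and their median log2 fold change was 0.87. With total counts 5 were called higher and 2 lower and the median was 0.39, against −0.54 for all genes at that scaling. Fkbp11, a prolyl isomerase of the secretory pathway, rose from 4.15 ± 1.58 CPM in MTP to 17.2 ± 7.71 CPM in MTP + CR livers (mean ± SD, n = 4, log2 fold change 2.06, SE 0.37, edgeR adjusted p = 0.0106). Manf, a protein secreted under ER stress, rose from 46.7 ± 26.6 to 197 ± 38.8 CPM (log2 fold change 2.08, SE 0.42, adjusted p = 0.0153), and Ppib, the ER cyclophilin, rose from 122 ± 54.0 to 358 ± 60.9 CPM (1.56, SE 0.32, adjusted p = 0.0166). Ero1l, the oxidase that recharges disulfide isomerases, fell by 1.52 on the log2 scale (SE 0.31, adjusted p = 0.0157). No gene of the list was called by edgeR in MTP against Control, although 19 of 21 had a negative log2 fold change and the median was −0.71 (−0.25 with total counts), and DESeq2 called 8 lower and 1 higher there. Without MTP 4, edgeR called 5 lower and 1 higher in MTP against Control and 9 higher in MTP + CR against MTP. With 1 of the other livers left out in turn, the number called higher in MTP + CR against MTP fell to as few as 1.

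Genes of ER-associated degradation, to which Herpud1 belongs by function, gave 4 calls higher and 0 lower among 16 in MTP + CR against MTP, beside 5.94% and 6.51% of all genes. In MTP against Control 1 of the 16 was called lower, beside 2.78% of all genes. Derl3, a derlin of the channel for failed proteins, was the gene called in both, with 6.91 ± 3.87 CPM in Control, 0.751 ± 0.663 CPM in MTP and 4.19 ± 0.255 CPM in MTP + CR livers (log2 fold changes −3.23 and 2.51, edgeR adjusted p = 0.0149 and 0.0300). Its calls in MTP against Control and in MTP + CR against MTP were lost in 1 and 5 of the 12 fits that left out 1 liver. Its level was close to the floor in MTP 1 (0.082 CPM) and MTP 3 (0.300 CPM). The other calls in MTP + CR against MTP were Vcp (log2 fold change 1.39, adjusted p = 0.0439), Derl2 (0.91, adjusted p = 0.0451) and Selenos (0.76, adjusted p = 0.0473), the ATPase that pulls proteins out of the membrane and partners of the channel, and these 3 calls were lost in 9, 9 and 10 of the 12 fits that left out 1 liver. With total counts 1 gene of this list was called higher and 3 lower, and its median log2 fold change turned from 0.39 to −0.10, which is above the −0.54 of all genes at that scaling. Of 21 genes of translocation into the ER and of COPII export, 3 were called higher in MTP + CR against MTP, beside 5.94% of all genes. They were Sec61b of the translocon (1.29, edgeR adjusted p = 0.0260), Spcs3 of the signal peptidase (0.90, adjusted p = 0.0320) and Ssr4 (0.90, adjusted p = 0.0414), a subunit of the translocon-associated complex. The 3 calls were lost in 5, 5 and 10 of the 12 fits without 1 liver, and with total counts 1 gene of this list was called higher and 3 lower. Spcs3 was also lower in MTP than in Control, at 53.0 ± 8.79 against 133 ± 29.1 CPM (log2 fold change −1.33, SE 0.23, edgeR adjusted p = 0.00951).

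Among 20 genes that sense stress and control eIF2, 1 was called higher in MTP against Control, beside 2.61% of all genes, and the same gene was called lower in MTP + CR against MTP: Eif2s1, which encodes the eIF2 subunit that is phosphorylated, at 52.4 ± 5.49 CPM in Control, 97.4 ± 29.5 CPM in MTP and 57.4 ± 8.12 CPM in MTP + CR livers (edgeR adjusted p = 0.0444 and 0.0498). The median log2 fold change of these 20 genes was 0.36 in MTP against Control and −0.16 in MTP + CR against MTP. With total counts the medians were 0.89 and −0.68, 8 genes were called higher in MTP against Control and 8 lower in MTP + CR against MTP, and without MTP 4 these counts were 3 and 5. Both calls of Eif2s1 were lost in most fits that left out 1 liver (9 and 10 of 12).

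Further targets of the integrated stress response went in both directions. Of 30 listed genes 25 were tested, and 3 were called higher and none lower by edgeR in MTP against Control, beside 2.61% of all genes higher (12 of the 25 had an unadjusted p under 0.05, and DESeq2 called 5 higher and 2 lower). Without MTP 4, 5 were called higher and 4 lower, and with 1 other liver left out 1 to 3 were called higher. With total counts 8 were called higher and none lower, and the median log2 fold change was 0.93 in place of 0.50. Sesn2, an inhibitor of mTORC1, rose from 11.5 ± 0.949 CPM in Control to 28.4 ± 8.85 CPM in MTP livers (log2 fold change 1.31, SE 0.25, edgeR adjusted p = 0.0127). Atf3, a stress transcription factor, stood at 38.3, 4.79, 21.5 and 4.25 CPM in MTP livers against 1.00 to 4.85 CPM in Control (log2 fold change 2.84, adjusted p = 0.0314). Tnfrsf10b, the death receptor DR5 that CHOP induces, stood at 29.5, 2.73, 19.5 and 1.18 CPM in MTP against 1.28 to 1.67 CPM in Control livers (3.22, adjusted p = 0.0322). The calls of Atf3 and Tnfrsf10b were lost in 5 and 6 of the 12 fits without 1 liver, that of Sesn2 in none. Atf3 and Tnfrsf10b were thus high in MTP 1 and MTP 3, the livers that were lowest in Chac1 and Herpud1.

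In MTP + CR against MTP, 3 of these 25 targets were called higher and 6 lower, beside 5.94% and 6.51% of all genes. Atf5, a transcription factor related to ATF4, was the called gene with the largest increase of the list (log2 fold change 2.90, SE 0.86, edgeR adjusted p = 0.0451). It stood at 26.6, 20.6, 9.73 and 300.8 CPM in MTP and 423 to 840.3 CPM in MTP + CR livers, so MTP 4 was far above the other MTP livers and within the 157 to 362 CPM of Control livers. Bbc3, which encodes the cell death protein PUMA, and Shmt2, a mitochondrial enzyme of serine metabolism, also rose (log2 fold changes 1.27 and 0.84, edgeR adjusted p = 0.0331 and 0.0439). Tnfrsf10b fell by 3.70 on the log2 scale (edgeR adjusted p = 0.0201), Slc7a5, a transporter of large neutral amino acids, by 1.99 (adjusted p = 0.0212), Atf3 by 2.65 (adjusted p = 0.0302) and Ero1l as above, while Atf4 itself was called higher. With total counts 1 target was called higher and 9 lower, and with 1 liver left out 0 to 4 were called higher and 0 to 6 lower, the fewest without MTP 3. In MTP + CR against Control 1 gene was called, Fgf21, a hormone of the liver that ATF4 induces, at 2.00 ± 1.79 CPM in Control, 8.12 ± 4.30 CPM in MTP and 16.1 ± 12.3 CPM in MTP + CR livers (log2 fold change 3.01, SE 0.67, edgeR adjusted p = 0.0468), a call lost in 8 of the 12 fits without 1 liver. Of 20 cytosolic aminoacyl-tRNA synthetases, many of which ATF4 also drives, 1 was called, Sars, higher in MTP + CR against MTP (log2 fold change 0.93, SE 0.19, edgeR adjusted p = 0.0172), beside 5.94% of all genes. No synthetase was called by edgeR in MTP against Control, where 5 had an unadjusted p under 0.05, DESeq2 called 2 higher, and 3 were called higher without MTP 4. With total counts 8 were called higher there, with a median log2 fold change of 0.63 in place of 0.12, and 7 were called lower in MTP + CR against MTP.

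**Figure D5:**
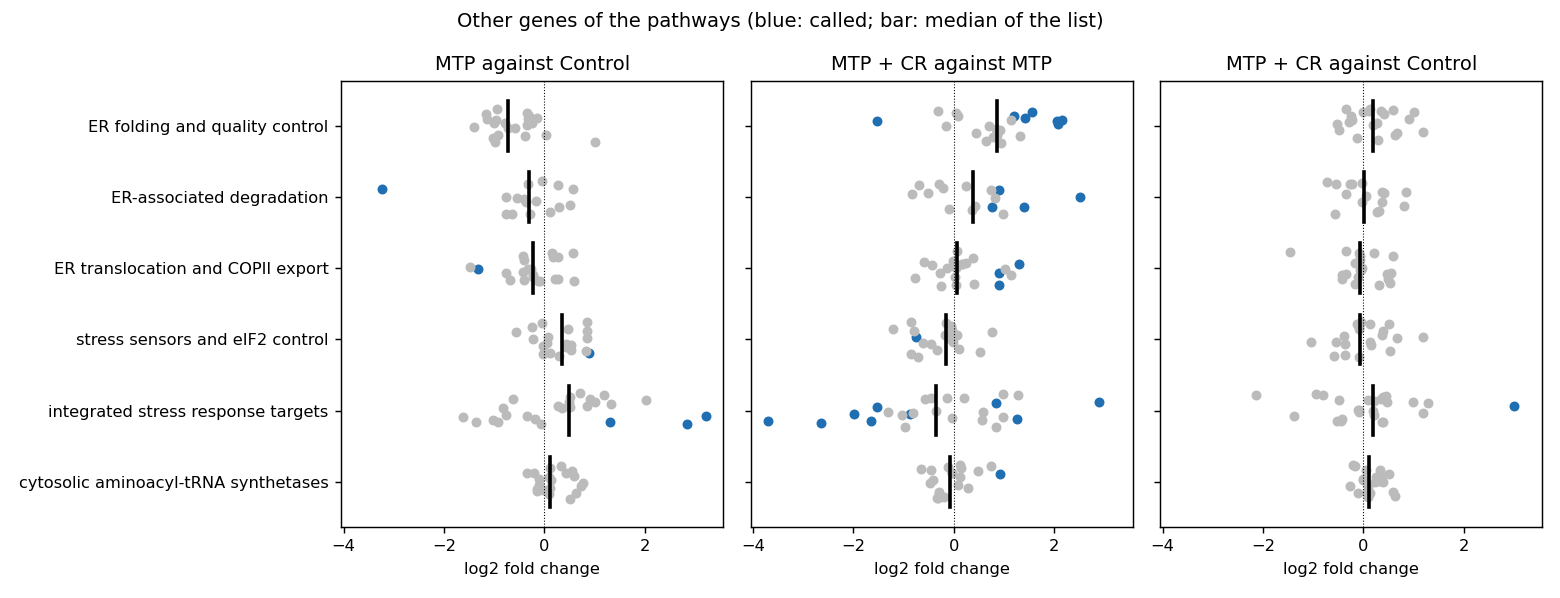
Log2 fold change of each tested gene of 6 lists in each comparison (points, blue where called, grey otherwise, vertical scatter without meaning) with the median of each list as a bar. In MTP + CR against MTP the median of ER folding and quality control is 0.87 and that of integrated stress response targets is −0.35 (0.08 without liver MTP 1), both with TMM factors, and both lists hold calls in either direction.

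The elements printed at the start were also counted in the lists. The ER stress response element was in at least 1 window of 6 of the 19 ER folding genes with a RefSeq window (25 windows) and of 2 of 12 genes of ER-associated degradation (13 windows), Derl3 among them, beside 0.119% of all windows. TGATGNAA was in at least 1 window of 8 of 27 integrated stress response targets, which had 36 windows in all, and in those of 5 of 13 synthetases, with 1 window each, beside 3.97% of all windows. The elements were found in genes that were called and in genes that were not, Hspa5 and Hsp90b1 being an example of each.

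Levels of other cell types moved between the groups as well. Of 10 myeloid markers, 4 were called higher in MTP than in Control and 5 lower in MTP + CR than in MTP, beside 2.61% and 6.51% of all genes. Their summed levels were 189 to 370.1 CPM in Control, 218 to 725 CPM in MTP and 131 to 194 CPM in MTP + CR livers. Of 10 endothelial markers, 7 were called lower in MTP + CR against each of the other groups, beside 6.51% (against MTP) and 1.00% (against Control) of all genes. Summed, the endothelial markers reached 624 to 714 CPM in Control, 525 to 667 CPM in MTP and 194 to 278 CPM in MTP + CR livers. Of 9 tested plasma cell and B cell markers, whose cells are rich in ER chaperones, none was called by edgeR in any comparison (0, 1 and 2 had an unadjusted p under 0.05, and DESeq2 called 0, 1 and 1, in MTP against Control, MTP + CR against MTP and MTP + CR against Control), with summed levels of 61.1 to 178 CPM in Control, 16.0 to 104 CPM in MTP and 21.1 to 79.1 CPM in MTP + CR livers. Of the markers of the exocrine pancreas, another chaperone-rich tissue, 2 of 10 were tested, Cpb1 and Pnlip had no count in any library, and the summed level was at most 67.0 CPM. The part of these cells in the results above was not tested.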

How the data were processed

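Liver mRNA of 12 male Kunming mice (Control, MTP and MTP + CR, 4 livers each, 1 library per liver) was sequenced by the authors, who deposited 1 table of read counts and FPKM values per gene. The deposited counts are whole reads per gene without normalization, and the deposited FPKM values are the same counts divided by gene length and library total. The processing notes of the submitters name Bowtie 0.12.2 and mm10, whereas the study's methods name Hisat2, Stringtie and edgeR. The annotation release and the strand setting of the counting are not given in the sources used here, so overlapping genes on opposite strands may share reads. The labels do not say how livers were spread over cages or sequencing runs, and p-values measure the spread between these livers.

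Counts were tested with edgeR 4.0.16 (R 4.3.3) in 1 quasi-likelihood fit of all 12 libraries with group as the only term, after filterByExpr (minimum count 10, minimum total 15) and TMM scaling. Genes were called at a Benjamini-Hochberg adjusted p under 0.05 over all tested genes and a fold change above 1.5. Confidence intervals are 95% intervals of that fit. DESeq2 1.42.0 and limma 3.58.1 (voom with quality weights, and log2 of FPKM plus 1 or 0.1) were alternatives, beside other scalings, filters and fold thresholds, a fit of the compared groups alone, a replicate block, and each liver left out in turn. The other fold thresholds reused the main fit, so their outcome follows from its values. Levels of different genes were compared in FPKM. Correlations between livers used log2 CPM (prior count 2) minus the group mean, with exact permutation within groups. Promoter windows and start sites are from RefSeq on GRCm38.p6, and exon overlaps from GENCODE vM21, which held 55141 of the 55487 identifiers. The scripts were tested on simulated data. No 2 libraries held identical counts.

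The text names all 10 genes and the 5 protein-coding genes most correlated with Hspa5 and with Asns. In each pathway list and comparison it names up to 4 called genes with the smallest adjusted p (where none was called, up to 2 could be named). Called genes of the cell type marker lists are counted and not named. Genes named to say which ones a count covers, and the pair Chac1 and Herpud1, were chosen after their values were seen. The 10 genes and the lists were chosen with earlier results of these data known, so none of the patterns is independent evidence.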

Additional observations from a re-analysis of the deposited data

Results flagged for a closer look

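Among 30 sets of 4 livers (10 genes in 3 groups), 2 held a liver whose gap to the nearest other liver took up more of the group's range than the 95% critical value of Dixon's test allows. Chance alone flags about 1 in 20 groups. Dnajb9 in liver MTP 4 was 57.5 CPM, against 153 to 169 CPM in the other MTP livers, a gap of 0.856 of the range. Xbp1 in liver Control 2 was 136 CPM, against 99.0 to 105 CPM in the other Control livers, a gap of 0.846 of the range.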

How the results depend on the processing

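Of the 10 genes, 0 were called in MTP against Control with TMM, against 1 by DESeq2 (Ddit3), 2 with total counts, 2 with log2(FPKM + 1), 2 with log2(FPKM + 0.1) (Ddit3 and Dnajb9 in all 3) and 3 with limma-voom (Ddit3, Herpud1 and Dnajb9), and 0 to 3 were called when 1 liver was left out. In MTP + CR against MTP, 2 were called, against 1 with upper-quartile factors (Hspa5), 1 with total counts (Dnajb9), 1 above a 2-fold change (Atf4), and 0 without a filter, with only the compared groups, with log2(FPKM + 1) or with log2(FPKM + 0.1), against 3 with DESeq2 and 3 with limma-voom, and 0 to 4 when 1 liver was left out. In MTP + CR against Control DESeq2 called 1, and the other settings and left-out livers 0. With total counts, log2(FPKM + 1) and log2(FPKM + 0.1), MTP against Control turned to 0.26, 0.27 and 0.27 for Hspa5, to 0.080, 0.080 and 0.084 for Xbp1 and to 0.44, 0.20 and 0.62 for Asns, and MTP + CR against MTP turned to −0.34, −0.38 and −0.40 for Xbp1. Trib3 turned to 0.052 in MTP against Control with log2(FPKM + 0.1), and limma-voom gave 0.56 for Asns there and 1.05 for Chac1 in MTP + CR against MTP. The cause was not tested.

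Replicate numbers did not pair the livers: deviations of same-numbered livers correlated at −0.187 to 0.203. With a replicate block, 0, 1 (Herpud1) and 0 of the 10 genes were called in MTP against Control, MTP + CR against MTP and MTP + CR against Control, and 539, 1428 and 66 of all genes against 820, 1892 and 202. The block turned Ddit3 to 0.0066 and Chac1 to 0.12 in MTP + CR against MTP, and Herpud1 to 0.0026 in MTP + CR against Control.

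With 1 liver left out, the log2 fold change of MTP against Control ran from −0.51 to 0.60 for Asns, −1.03 to 0.0014 for Trib3 and −1.84 to 0.016 for Chac1. That of MTP + CR against MTP ran from −1.10 to 0.67 for Chac1, −0.34 to 0.29 for Ddit3 and −0.026 to 0.30 for Xbp1. That of MTP + CR against Control ran from −0.36 to 0.23 for Herpud1, −0.041 to 0.35 for Hsp90b1 and −0.25 to 0.76 for Trib3.

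The count over all genes in the 3 comparisons was 820, 1892 and 202, with DESeq2 1764, 3318 and 1158. With 1 liver left out, 244 (without MTP 3) to 2009 (without MTP 4) were called in MTP against Control and 261 to 4009 (without the same livers) in MTP + CR against MTP. Asns and Chac1, the least counted of the 10, had as few as 6 and 9 counts in a library, which limits what could be detected for them. With 4 livers a group, many of the calls lay near the threshold and were lost when any of several livers was left out.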
